A study of Mus musculus with 7 samples.

Results

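Transcripts of the mouse MHC class II system were followed in macrophages sorted from intracranial gliomas. The set holds 10 genes out of the 55385 listed in the count files, taken by symbol: the presenting chains H2-Aa, H2-Ab1 and H2-Eb1, the peptide-loading chains H2-DMa, H2-DMb1, H2-DMb2, H2-Oa and H2-Ob, the invariant chain gene Cd74 and the transcriptional coactivator Ciita. The gliomas grew in the brains of C57BL/6 mice from 100000 injected QPP7 cells, a glioma line with the hairpin shChi3l1, directed at Chi3l1 (3 libraries), or with the control hairpin shSC (4 libraries). The hairpin was in the tumour cells, whereas the macrophages came from the host and carried none. The labels give neither the age of the mice nor the time after injection, and they do not say whether different libraries came from different mice. P-values therefore rest on the spread among these 7 libraries, and some of it may be technical.

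MHC class II molecules are heterodimers of an alpha and a beta chain that show peptides from endosomes to CD4+ T cells. The invariant chain fills the groove of newly made dimers and leads them to endosomes, H2-DM exchanges its last fragment for peptide, and H2-DO restrains H2-DM. Ciita does not bind DNA itself but is recruited by RFX, CREB and NF-Y proteins that sit on the X and Y boxes of class II promoters. Macrophages transcribe it mainly after interferon-gamma, whereas dendritic cells and B cells do so without that stimulus.

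The promoters show what the set shares outside the counts. RefSeq sequences of the GRCm38.p6 build, the mm10 assembly, were found for 7 of the 10 genes, and the 250 bases before each start site were searched on both strands. The motifs searched, which did not overlap one another in these windows, were AACNNATGA, an X-box-like stretch, TGACGTCA, the palindromic cyclic-AMP element, and the Y box ATTGG. The letters of the X-box-like stretch were chosen by reading these promoters, so its matches there are a description. The windows below run from 12 bases before the first motif to 12 bases after the Y box and carry both motifs in capitals, and they are shown because the spacing recurs among genes that encode different parts of the pathway.
H2-Eb1 (chr17:34305766-34305824, plus strand): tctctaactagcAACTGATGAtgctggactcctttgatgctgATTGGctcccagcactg
H2-DMb2 (chr17:34145116-34145175, plus strand): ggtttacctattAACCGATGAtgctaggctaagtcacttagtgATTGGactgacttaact
H2-Ob (chr17:34238808-34238864, plus strand): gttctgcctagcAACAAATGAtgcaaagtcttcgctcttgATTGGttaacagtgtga
H2-Aa (chr17:34287855-34287909, minus strand): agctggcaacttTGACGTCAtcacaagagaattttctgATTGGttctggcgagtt

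The X-box-like stretch and the Y box were 21 bases apart in H2-Eb1, 22 in H2-DMb2 and 19 in H2-Ob. H2-DMb1 had the same arrangement with a gap of 22 bases, and H2-Aa had the cyclic-AMP element 18 bases before its Y box. The H2-DMb1 window, not shown above, lay with all its 60 bases in annotated exons. Of 32817 promoters of this length, 2.49% held the X-box-like stretch, 1.55% the cyclic-AMP element and 33.8% the Y box on either strand. The stretch followed by a Y box at 15 to 25 bases on the same strand stood in 12 of them (0.0366%), 4 of which were the promoters of H2-Eb1, H2-DMb1, H2-DMb2 and H2-Ob. The letters were read from these promoters and the range of 15 to 25 bases spans their own gaps. Their place among the 12 was thus fixed beforehand and is no test of enrichment. H2-Oa had a Y box and neither of the other motifs, and of the listed starts of H2-DMa 1 had a Y box and the other none of the motifs. A match of letters is a description of these windows and was not measured as binding.

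Across the 7 libraries, 19169129 to 36502664 reads were assigned to genes. The defining macrophage markers Csf1r, Adgre1, Cd68 and Fcgr1 were present in every library, the lowest value being 173 CPM (reads relative to library size, scaled by the TMM method) for Adgre1 in shChi3l1 1. Chi3l1 itself had 0.285 to 1.19 CPM, and since the hairpin acted in other cells this does not check the labels. Of the other cell types, the summed CPM of 12 B-cell markers was 191 to 1926 in shChi3l1 and 105 to 552 in shSC libraries, with Ighm the most abundant. Of 12 dendritic-cell markers, led by Ccr7, it was 987 to 1723 and 562 to 1983, and of 8 T-cell markers, led by Lck, 68.5 to 262 and 35.2 to 356. The 8 glioma and glial markers, led by Fabp7, summed to 9.84 to 80.9 and 39.2 to 303, the highest being shSC 4. The 7 microglial markers summed to 853 to 3139 and 714 to 1206, the highest being shChi3l1 3, while 6 endothelial markers, led by Cldn5, stayed at or below 80.2 and 6 neutrophil markers, led by Csf3r, at or below 145. Pax5 had no read in 4 of 7 libraries, and the other defining B-cell and dendritic-cell markers were detected in all 7.

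Class II transcripts were among the most abundant of these macrophages. The 10 genes together took 8.74, 10.9 and 11.0% of all assigned reads in shChi3l1 1, 2 and 3 and 7.19, 10.6, 10.7 and 6.71% in shSC 1, 2, 3 and 4. Cd74 or H2-Ab1 was the gene with the most reads in every library, and H2-Aa ranked between 4 and 9. Shares that large move the scale of every other gene, and the TMM factors offset part of that.

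Levels of different genes were compared per kilobase of exon, as means ± SD over the 7 libraries. Cd74 at 17876 ± 8447 CPM per kilobase and H2-Ab1 at 16215 ± 5563 led the order and overlapped, Cd74 being the higher in 4 of 7 libraries. H2-Eb1 (3817 ± 834) and H2-Aa (3426 ± 845) followed and overlapped as well. All libraries of H2-Ab1 lay above all of H2-Eb1, and all of H2-Aa above all of H2-DMb1. The loading chains came next, with H2-DMb1 at 594 ± 202, H2-DMa at 417 ± 113, H2-DMb2 at 95.9 ± 35.9 and H2-Oa at 78.1 ± 46.5 CPM per kilobase. H2-Ob at 8.91 ± 5.45 and Ciita at 6.54 ± 3.26 closed the order and did not differ beyond their spread. The lengths in the files join all annotated exons of a gene, so a gene with rarely used long exons is set too low on this scale.

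**Figure D1:**
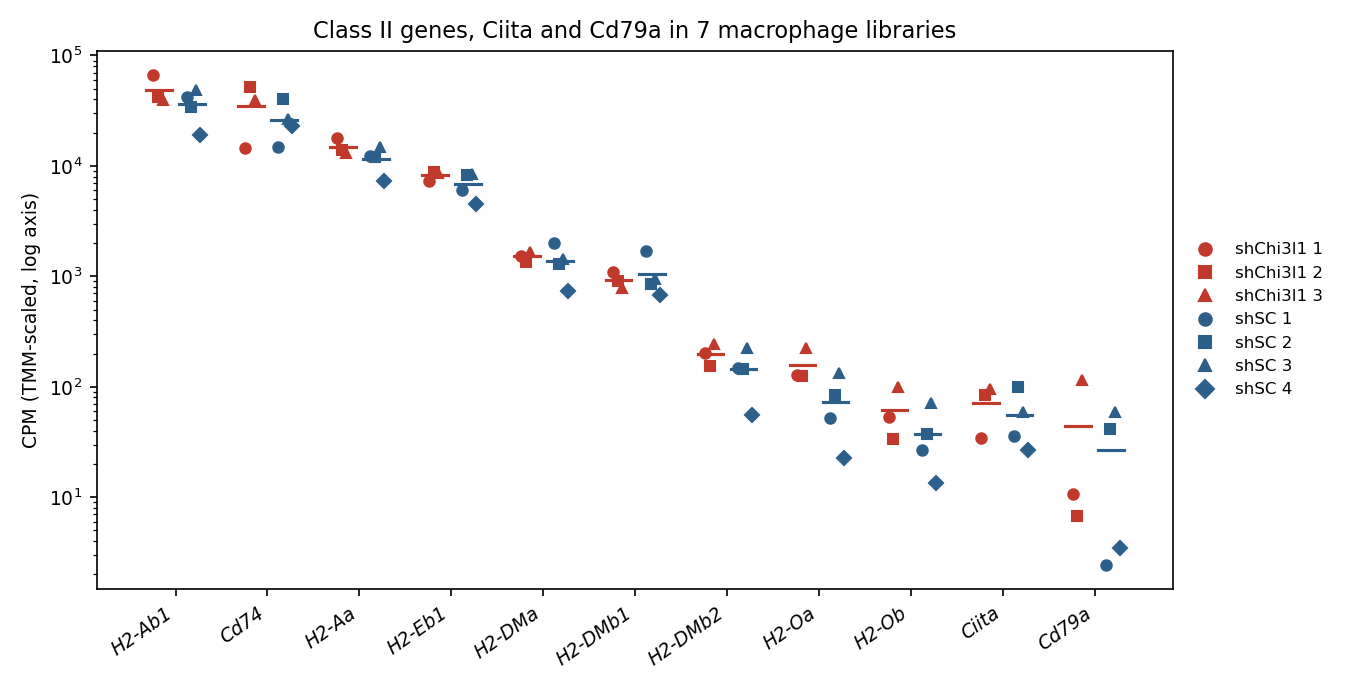
TMM-scaled CPM (log axis) of the 10 genes and of the B-cell gene Cd79a in each library, with shChi3l1 in red and shSC in blue, a marker shape per replicate number and a line at each group mean. shSC 4 was the lowest library in 9 of the 10 genes, beside 16.1% of all tested genes, and the groups overlapped in all 10.

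Between the hairpins, no class II gene passed the test, although 9 of the 10 had a higher fitted level in macrophages from shChi3l1 tumours. With edgeR's quasi-likelihood test the adjusted p, taken over all 15448 tested genes, was 0.9998 for each of the 10 genes. It called 0.0% of all tested genes, which is 0 of 15448. At an unadjusted p under 0.05 there were 0 of the 10 genes beside 1.48% of all tested genes. DESeq2's Wald test had 0 of the 10 at that level, beside 2.27% of all tested genes, and called 1 gene of the whole table (0.00647%), which is none of these. Limma's voom with sample quality weights called 0 genes and had 1 of the 10, H2-Oa, at an unadjusted p of 0.0469, beside 4.62% of all tested genes under 0.05. Of the 10 genes, 0 had groups that did not overlap, beside 1.24% of all tested genes with shChi3l1 higher and 1.25% with it lower. A log2 fold change above 0, as in 9 of the 10, was found in 57.6% of all tested genes.

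The median log2 fold change over the 10 genes was 0.40, beside 0.066 over all tested genes. It was 0.20 without shSC 4, 0.26 without shChi3l1 3, 0.053 without both and 0.45 without shSC 2. shSC 4 was the lowest library in 9 of the 10 genes, beside 16.1% of all tested genes, and shChi3l1 3 the highest in 3, beside 14.6%. Smaller values without them follow in part from that choice and do not test the difference. The 10 macrophage markers had the same median of 0.40, with 10 of 10 higher and 0 called. As a ratio to the summed CPM of the macrophage markers other than Lyz2, their most abundant member, the summed CPM of H2-Aa, H2-Ab1, H2-Eb1 and Cd74 was 8.65 ± 1.12 (SD) over the 3 shChi3l1 libraries and 8.60 ± 2.05 (SD) over the 4 shSC libraries. shSC 4, at 7.50, was within the range of the other libraries on that ratio, and with Lyz2 counted the values were 2.87 ± 0.738 and 3.34 ± 0.741 over the same groups. In bulk libraries, fewer cells of a type and less RNA per cell cannot be told apart.

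Of the presenting chains, H2-Ab1 (ENSMUSG00000073421.6, mm10 chromosome 17, 34257689 to 34269419, plus strand) encodes the beta chain of I-A, the class II molecule that C57BL/6 mice display. H2-Ab1 had 66254, 41758 and 39204 CPM in shChi3l1 1, 2 and 3 and 42299, 34019.6, 48750.3 and 19199 CPM in shSC 1, 2, 3 and 4. shChi3l1 1 was the highest and shSC 4 the lowest, and the other 5 libraries of both hairpins lay between 34019.6 and 48750.3 CPM. The means were 49072 ± 14934 CPM (SD) over the 3 shChi3l1 libraries and 36067 ± 12759.6 CPM (SD) over the 4 shSC libraries, which gave a log2 fold change of 0.44 (SE 0.43). With 1 library left out it ran from 0.13 without shChi3l1 1 to 0.58 without shChi3l1 3, and it was 0.24 without shSC 4. H2-Aa (chromosome 17, 34282744 to 34287823, minus strand), which encodes the partner alpha chain, had 17786, 13918 and 13064 CPM in shChi3l1 1, 2 and 3 and 12178, 11953, 14898 and 7284 CPM in shSC 1, 2, 3 and 4. It followed H2-Ab1 at both ends, with shChi3l1 1 highest and shSC 4 lowest. H2-Aa had a log2 fold change of 0.37 (SE 0.38), which was 0.19 without shChi3l1 1, 0.20 without shSC 4 and 0.45 without shChi3l1 3. Its level per kilobase was 0.182 to 0.257 times that of H2-Ab1 in the 7 libraries, a narrower range than that of the chains themselves, which varied by 2.44 and 3.45 times.

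H2-Eb1 (chromosome 17, 34305867 to 34316674, plus strand) encodes the beta chain of the second class II molecule, I-E. C57BL/6 mice do not display I-E because the alpha chain gene H2-Ea is not transcribed in this strain. Its pseudogene entry had 0 to 6 reads per library, whereas H2-Eb1 had 7228, 8786 and 8558 CPM in shChi3l1 1, 2 and 3 and 6009, 8356, 8504 and 4499 CPM in shSC 1, 2, 3 and 4. It was the steadiest of the 10, varying 1.95 times over the libraries, with shSC 4 and shSC 1 the lowest. H2-Eb1 had a log2 fold change of 0.26 (SE 0.37), which was 0.10 without shSC 4 and 0.37 without shSC 2. Transcripts of a beta chain without its alpha partner were thus present at 7419.9 CPM on average in cells that had hardly any read of H2-Ea.

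The invariant chain gene varied in another way than H2-Ab1 and H2-Aa, and like H2-Eb1 it was highest in shChi3l1 2. Cd74 (chromosome 18, 60803848 to 60812652, plus strand) had 14401, 51347 and 39672 CPM in shChi3l1 1, 2 and 3 and 14695, 40746, 26441 and 22791 CPM in shSC 1, 2, 3 and 4. The lowest libraries were the replicates numbered 1 of both hairpins, and the highest were those numbered 2. Its log2 fold change was 0.43 (SE 0.52), with 35139.8 ± 18885 CPM (SD) over the 3 shChi3l1 libraries and 26168 ± 10887 CPM (SD) over the 4 shSC libraries. It was 0.042 without shChi3l1 2, 0.21 without shSC 1, 0.72 without shSC 2 and 0.77 without shChi3l1 1. The ratio of Cd74 to H2-Ab1 per kilobase was 0.332, 1.88 and 1.55 in shChi3l1 1, 2 and 3 and 0.531, 1.83, 0.830 and 1.82 in shSC 1, 2, 3 and 4. It ran over the same range in both groups, so it separated libraries within a hairpin and not the hairpins. The share of reads in genes with over 5000 exon bases was 12.6, 20.7 and 18.6% and 14.8, 19.9, 16.8 and 19.8% in the same order. Ranked by either measure, the 7 libraries fell in the same order, and the part of that library property in the Cd74 level was not tested.

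Ciita (ENSMUSG00000022504.10, chromosome 16, 10480059 to 10528418, plus strand) encodes the coactivator of class II transcription and was itself scarce. It had 34.5, 84.8 and 96.3 CPM in shChi3l1 1, 2 and 3 and 35.8, 99.5, 59.1 and 26.7 CPM in shSC 1, 2, 3 and 4, which rest on 621 to 3523 reads. shSC 4 and both replicates numbered 1 were low, and shSC 2 was the highest, so the hairpins overlapped over nearly the whole range. The log2 fold change was 0.38 (SE 0.52). It was 0.11 without shChi3l1 3, 0.15 without shSC 4, 0.21 without shSC 1, 0.24 without shChi3l1 2, 0.69 without shChi3l1 1 and 0.82 without shSC 2, and -0.12 without shChi3l1 3 and shSC 4. Ciita has 9535 exon bases, and its low libraries other than shSC 4 were those with the smallest shares of reads in long genes. In shSC 4, where that share was 19.8%, Ciita was nevertheless the lowest, as were 8 of the other 9 genes.

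**Figure D2:**
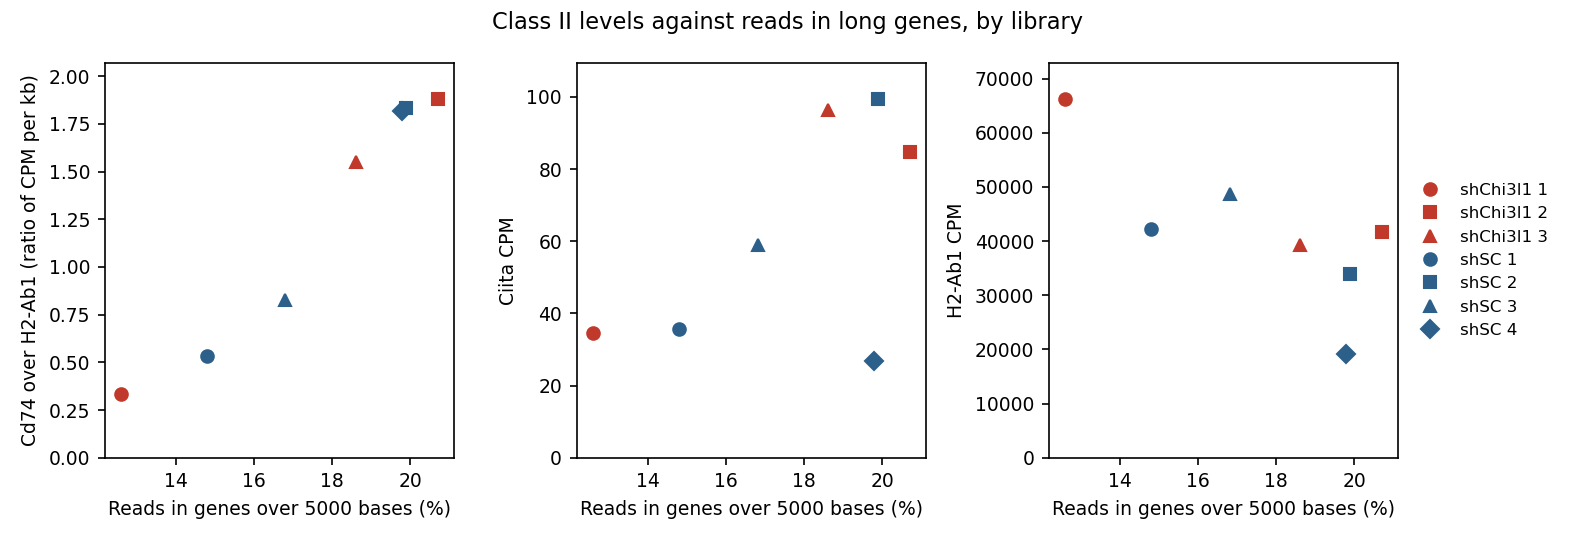
Ratio of Cd74 to H2-Ab1 per kilobase, Ciita CPM and H2-Ab1 CPM (vertical axes) against the percentage of reads in genes with over 5000 exon bases (horizontal axis), 1 point per library. The ratio runs from 0.332 to 1.88 along the axis in libraries of both hairpins, and shSC 4 stands low in Ciita and H2-Ab1 at 19.8%.

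The H2-DM genes, whose product edits the peptides bound to class II, included the genes with the smallest differences between the hairpins, H2-DMa and H2-DMb1. H2-DMa (chromosome 17, 34119541 to 34139101, plus strand) ranged from 1361 to 1663 CPM in shChi3l1 and from 735 to 2013 CPM in shSC libraries, and its log2 fold change of 0.15 (SE 0.40) became -0.061 without shSC 4, 0.074 without shChi3l1 3 and 0.37 without shSC 1. Brd2 overlaps 10.4% of its exon bases. H2-DMb1 (chromosome 17, 34153072 to 34160230, plus strand) was the only 1 of the 10 with a lower fitted level in shChi3l1, at -0.17 (SE 0.41). It had 1103, 903 and 787 CPM in shChi3l1 1, 2 and 3 and 1708, 861, 955 and 673 CPM in shSC 1, 2, 3 and 4, and the log2 fold change was 0.14 without shSC 1, the highest library, and -0.069 without shChi3l1 3, -0.30 without shSC 3, -0.34 without shSC 4 and -0.36 without shChi3l1 1. The duplicate beta chain gene H2-DMb2 (chromosome 17, 34143307 to 34151555, plus strand) had 201, 155 and 242 CPM in shChi3l1 1, 2 and 3 and 149, 145, 226 and 55.6 CPM in shSC 1, 2, 3 and 4, a log2 fold change of 0.47 (SE 0.46) that was 0.20 without shSC 4, 0.30 without shChi3l1 3 and 0.71 without shSC 3. Counted per kilobase, H2-DMb2 made up 14.9, 14.2 and 22.8% of beta chain transcripts in shChi3l1 1, 2 and 3 and 7.73, 13.9, 18.5 and 7.37% in shSC 1, 2, 3 and 4. The share was highest in the replicates numbered 3 of both hairpins. The gene copies share 22.7% of the 50-base words of H2-DMb1 and 21.2% of those of H2-DMb2, so reads in these stretches may be assigned to the wrong copy. None of the other 8 genes shared a 50-base word with another of the 10.

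The H2-DO genes showed the largest differences of the 10. H2-Oa (ENSMUSG00000024334.9, chromosome 17, 34092340 to 34095234, plus strand), the alpha chain of the molecule that restrains H2-DM, had 128, 124 and 224 CPM in shChi3l1 1, 2 and 3 and 52.7, 83.9, 134 and 22.8 CPM in shSC 1, 2, 3 and 4. The shChi3l1 libraries were high and only shSC 3 reached into their range. The means were 159 ± 56.8 CPM (SD) over the 3 shChi3l1 libraries and 73.3 ± 47.4 CPM (SD) over the 4 shSC libraries, which gave a log2 fold change of 1.12 (SE 0.55) with an unadjusted p of 0.0710 and an edgeR adjusted p of 0.9998. With 1 library left out it ran from 0.78 without shChi3l1 3 to 1.53 without shSC 3. It was 0.48 without shChi3l1 3 and shSC 4. The gene BC051537 overlaps 22.8% of the exon bases of H2-Oa, and the library preparation does not mark strand. H2-Ob (ENSMUSG00000041538.16, chromosome 17, 34238903 to 34254414, plus strand), the beta chain, had 53.3, 33.8 and 99.2 CPM in shChi3l1 1, 2 and 3 and 26.6, 37.6, 71.5 and 13.5 CPM in shSC 1, 2, 3 and 4. shChi3l1 3 and shSC 3 were the highest libraries, shSC 4 the lowest, and the log2 fold change was 0.73 (SE 0.57). It was 0.22 without shChi3l1 3, 0.46 without shSC 4 and 1.21 without shSC 3. Per kilobase, H2-DO transcripts amounted to 8.28, 9.26 and 16.3% of H2-DM transcripts in shChi3l1 1, 2 and 3 and 2.51, 6.85, 9.70 and 2.90% in shSC 1, 2, 3 and 4. On this ratio only shSC 3 lay within the shChi3l1 range, and shSC 1 and shSC 4 were the lowest. The H2-DO value is the sum of both chains, of which H2-Oa averaged 78.1 and H2-Ob 8.91 CPM per kilobase. The ratio thus mainly restates H2-Oa and is no separate measure of the pair. In H2-Ob alone, shChi3l1 2 (33.8 CPM) lay below shSC 2 (37.6) and shSC 3 (71.5).

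**Figure D3:**
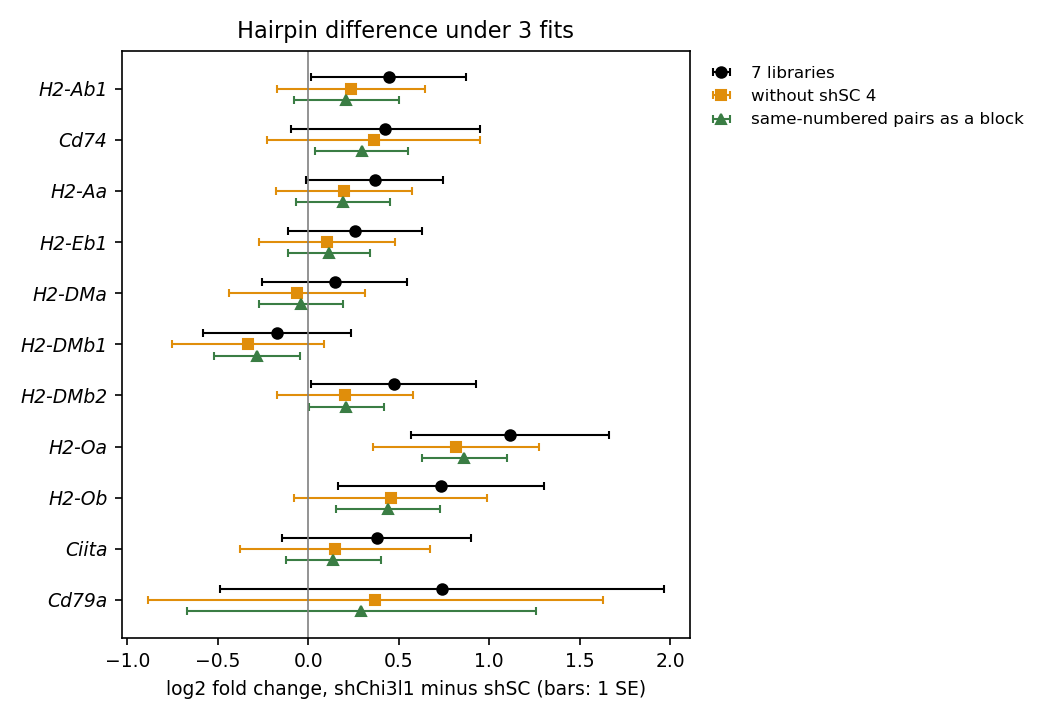
Log2 fold change (horizontal axis, shChi3l1 minus shSC, bars of 1 SE) of each of the 10 genes and Cd79a over 7 libraries, without shSC 4, and with the replicate number as a block. H2-Oa has the highest value of the 10 genes in each of these fits, from 0.82 to 1.12, and H2-DMb1 the lowest.

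Within the same-numbered pairs, replicates 1 to 3, 6, 8 and 7 of the 10 genes were higher in the shChi3l1 library. Of all tested genes, 54.3%, 50.8% and 49.9% were. The median log2 differences of the 10 genes were 0.35, 0.086 and 0.15. H2-Eb1, H2-DMb2 and H2-Oa were higher in all 3 pairs, which is 3 of 10 genes beside 12.5% of all tested genes, and 0 were lower in all 3, beside 10.7%. H2-Oa differed by 1.28, 0.57 and 0.75 on the log2 scale in pairs 1, 2 and 3, whereas H2-DMb2 differed by 0.44, 0.10 and 0.097. H2-Eb1 differed by 0.27, 0.072 and 0.0092, so it was all but level in pair 3. H2-Ab1 (0.65, 0.30 and -0.31) and H2-Aa (0.55, 0.22 and -0.19) changed sign in pair 3. In a fit that pairs the libraries by adding the replicate number as a block and drops shSC 4, H2-Oa had a log2 fold change of 0.86 (SE 0.23) with an unadjusted p of 0.00993. The edgeR adjusted p of H2-Oa there was 1. The block put 1 of the 10 genes under an unadjusted p of 0.05, beside 2.91% of the tested genes, and at the adjusted threshold it called 0.0%. The median over the 10 genes was 0.20 with the block.

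**Figure D4:**
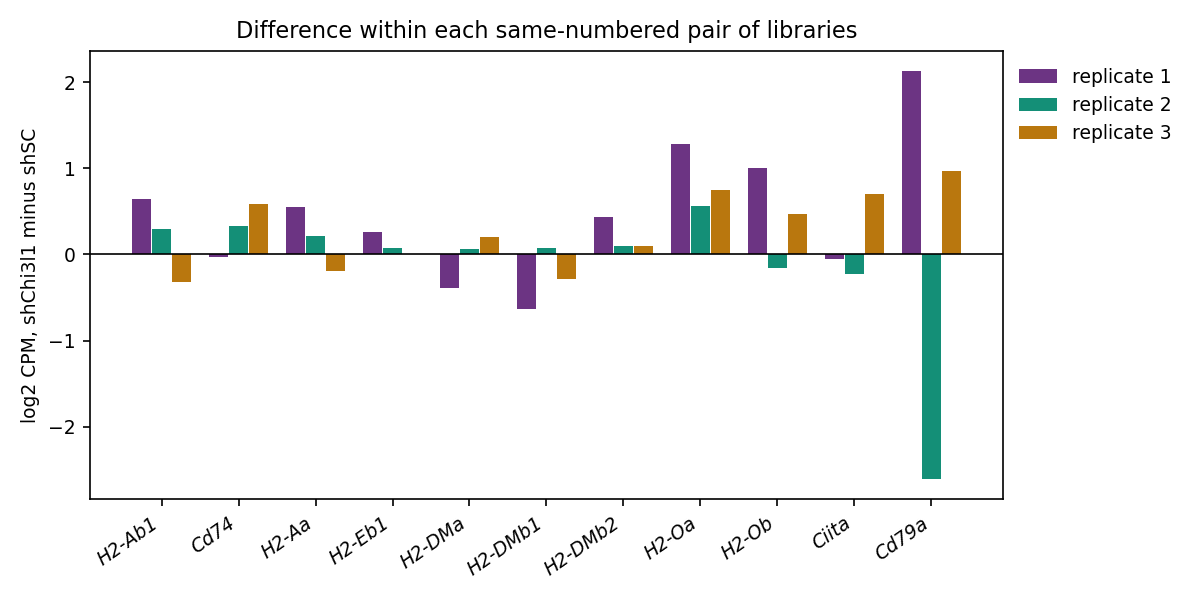
Difference in log2 CPM, shChi3l1 minus shSC (vertical axis), within replicates 1, 2 and 3 for the 10 genes and Cd79a, 1 bar per pair. H2-Oa is above 0 in all 3 pairs, and Cd79a is at 2.13, -2.61 and 0.97.

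Cd79a, which encodes a chain of the B-cell receptor and is not a macrophage gene, was read beside the set because B cells carry class II and H2-DO. Cd79a had 10.8, 6.74 and 115 CPM in shChi3l1 1, 2 and 3 and 2.45, 41.2, 58.9 and 3.44 CPM in shSC 1, 2, 3 and 4. It was high in shChi3l1 3, shSC 3 and shSC 2 and low in the other 4 libraries, a range of 47.1 times that crossed the hairpins. Its log2 fold change was 0.74 (SE 1.22) over all libraries, -1.60 without shChi3l1 3 and 1.49 without shSC 3. All 10 B-cell markers that passed the low-count filter had a higher fitted level in shChi3l1, beside 57.6% of all tested genes. Their median was 0.77, with 0 called. Pax5, which did not pass, had 0, 0 and 1 reads in shChi3l1 1, 2 and 3. In shSC 1, 2, 3 and 4 it had 0, 17, 22 and 0. Cr2 did not pass either. The summed CPM of the B-cell markers was 1926 in shChi3l1 3, against 191 and 239 in shChi3l1 1 and 2. H2-Aa and H2-Ab1, highest in shChi3l1 1, did not follow the order of Cd79a. shSC 1, the lowest library in Cd79a, had 12178 CPM of H2-Aa, and shChi3l1 3, the highest, had 13064. H2-Eb1 and Cd74 lay closer to it, with 6009 CPM of H2-Eb1 and 14695 CPM of Cd74 in shSC 1 and 8558 and 39672 CPM in shChi3l1 3, but both were highest in shChi3l1 2, where Cd79a was low. The part of B-cell RNA in their levels was not tested. H2-Ab1 counted 340.3 times the CPM of Cd79a in shChi3l1 3 and 17289 times in shSC 1.

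H2-Oa, H2-Ob and H2-DMb2 lay closer to Cd79a in their order. Each was highest in shChi3l1 3 and second highest in shSC 3, the libraries first and second in Cd79a, and each was lowest in shSC 4. H2-Ob counted 0.861 times the CPM of Cd79a in shChi3l1 3, 0.914 times in shSC 2 and 1.22 times in shSC 3, and 3.92 to 10.9 times in the 4 libraries low in Cd79a. In pair 2, H2-Oa and H2-DMb2 differed from Cd79a in direction and H2-Ob did not. Cd79a was 6.74 CPM in shChi3l1 2 and 41.2 in shSC 2, whereas H2-Oa was 124 in shChi3l1 2 and 83.9 in shSC 2. H2-DMb2 was 155 and 145 CPM in these libraries, and H2-Ob 33.8 and 37.6. The part of B-cell RNA in the H2-DO and H2-DMb2 levels was not tested. The defining dendritic-cell genes Flt3, Zbtb46, Xcr1 and Clec9a, of cells that also carry class II, were at -0.30, 0.18, -0.59 and -0.14 on the log2 scale. Of the 12 dendritic-cell markers, 7 had a higher and 5 a lower fitted level, with 0 called. The summed CPM of the 12 was 987, 1723 and 1455 in shChi3l1 1, 2 and 3. In shSC 1, 2, 3 and 4 it was 562, 1983, 1929 and 608. The lowest in that sum, shSC 1 and shSC 4, were also lowest in H2-Eb1, H2-Oa and H2-Ob. Of H2-Ab1, however, shSC 1 had the 3rd highest level, and Cd74 was lowest in shChi3l1 1. Ccr7, the most abundant of the 12 markers, was lowest in shSC 1 and shSC 4, at 161 and 211 CPM. Of the defining genes, Zbtb46 was lowest there too, at 4.43 and 6.75 CPM. Flt3 was lowest in shSC 1 and shChi3l1 1, at 5.99 and 7.53 CPM. Xcr1 was lowest in shChi3l1 1 (5.75 CPM). Clec9a was lowest in shSC 4 (2.06 CPM) but highest in shSC 1 (11.7 CPM). The part of dendritic-cell RNA in class II levels was not tested.

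**Figure D5:**
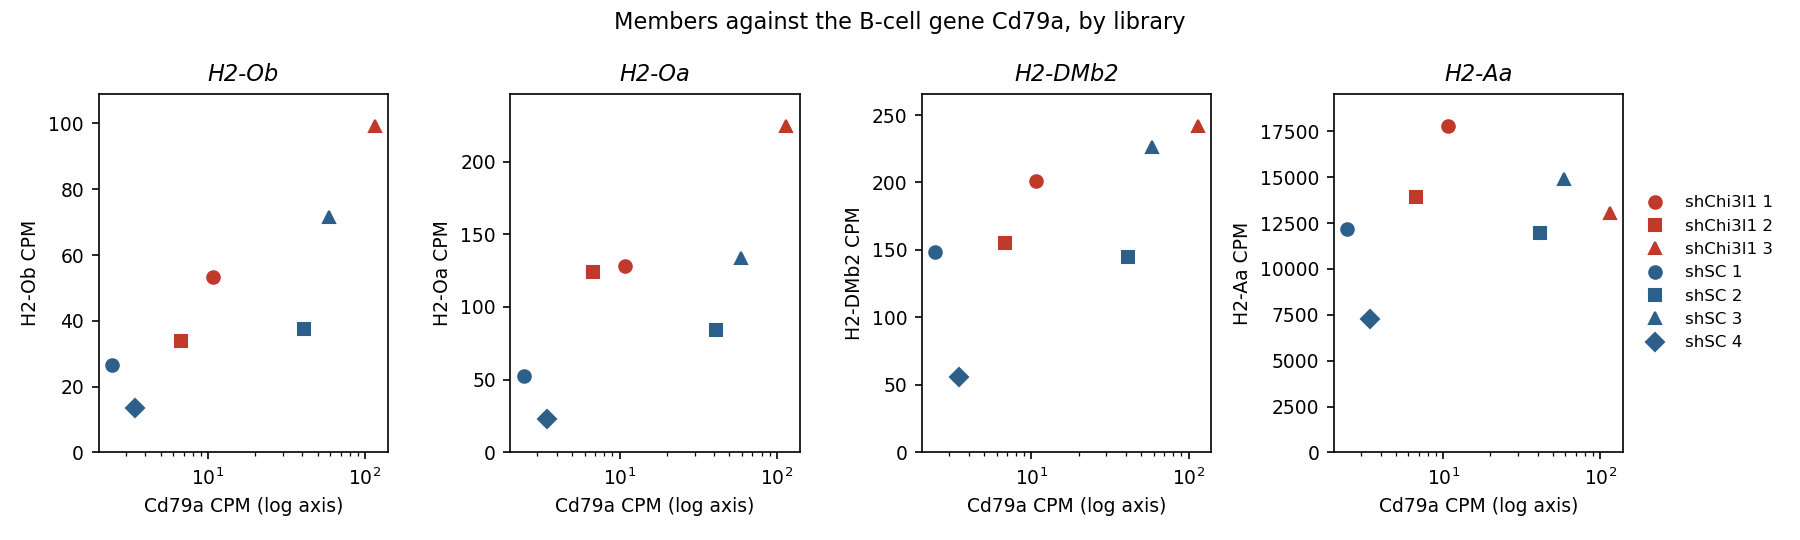
CPM of H2-Ob, H2-Oa, H2-DMb2 and H2-Aa (vertical axes) against CPM of Cd79a (horizontal log axis), 1 point per library, coloured by hairpin with a marker shape per replicate number. shChi3l1 3 and shSC 3 are the highest libraries in H2-Ob, H2-Oa and H2-DMb2, while the highest in H2-Aa is shChi3l1 1, at 10.8 CPM of Cd79a.

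Upstream of Ciita, genes of the interferon-gamma signal showed no difference that passed. In that list 11 of 14 tested genes had a higher and 3 a lower fitted level (median log2 fold change 0.17, 0 called). Of all tested genes, 57.6% had a higher one. The list mixes activating genes with the inhibitors Socs1 (0.084) and Socs3 (0.26) and the repressor Prdm1 (0.40). These are among the higher genes, so the count gives no direction of the signal. Ifng, encoding the cytokine itself, had 10.1, 3.06 and 11.3 CPM in shChi3l1 1, 2 and 3 and 33.8, 22.8, 13.2 and 2.32 CPM in shSC 1, 2, 3 and 4, a log2 fold change of -1.15 (SE 0.79). It was higher in the shSC library of each pair and lowest in shSC 4. The T-cell markers summed to 35.2 to 356 CPM over the libraries, and the part of T-cell RNA in the Ifng level was not tested. Jak2, a kinase of the receptor, was at -0.42 (SE 0.50), and Irf8, a myeloid factor and the most abundant of the list at 818 CPM on average, at 0.19 (SE 0.43).

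In a list of class II promoter proteins and other regulators of MHC transcription, Nlrc5 included, 8 of 14 tested genes had a higher and 6 a lower fitted level (median log2 fold change 0.023, 0 called). Rfx5, the DNA-binding RFX subunit, was at 0.72 (SE 0.74) with 0.851 to 7.52 CPM over the libraries, and annotated exons of another gene overlap 26.8% of its exon bases. Zxdc, a zinc finger partner of Ciita, was at 0.74 (SE 0.49) and the methyltransferase gene Carm1 at 0.51 (SE 0.62). Nfyc, a subunit of the Y-box factor and the most abundant of the list, was at -0.16 (SE 0.41). In the class II region beside the 10 genes, 4 of 7 tested genes had a higher and 3 a lower fitted level (median log2 fold change 0.11, 0 called). Psmb8, an immunoproteasome subunit gene, was the most abundant of these, at 0.17 (SE 0.53), the peptide transporter gene Tap2 was at 0.38 (SE 0.43), and Btnl2, at no more than 2.38 CPM in any library, at -2.30 (SE 1.14).

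Of the genes for antigen processing and class II trafficking, 15 of 20 tested genes had a higher and 5 a lower fitted level (median log2 fold change 0.31, 0 called). A higher level was fitted in 57.6% of all tested genes. At an unadjusted edgeR p under 0.05 there were 2 of the 20, Lamp1 and Cd9, beside 1.48% of all tested genes. Lamp1, a lysosomal membrane protein gene, had 205, 489 and 170.1 CPM in shChi3l1 1, 2 and 3 and 119, 156, 99.6 and 97.7 CPM in shSC 1, 2, 3 and 4, a log2 fold change of 1.28 (SE 0.43). Cd9, a tetraspanin gene, had 1549, 829.7 and 692 CPM in shChi3l1 1, 2 and 3 and 668, 420.2, 576 and 421 CPM in shSC 1, 2, 3 and 4 and was at 0.97 (SE 0.40). In both, and in Ctsl, every shChi3l1 library lay above every shSC library, so the groups did not overlap in 3 of 20 genes beside 1.24% of all tested genes. Annotated exons of other genes overlap 9.31% of the exon bases of Lamp1, 10.7% of those of Cd9 and 26.8% of those of Ctsl.  Cd83, whose product keeps class II on the surface, was at 0.78 (SE 0.38), and Ctss, the protease that trims the invariant chain and the most abundant of the list at 12821 CPM on average, at 0.53 (SE 0.38). Each of these 4 had an edgeR adjusted p of 0.9998.

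The 10 genes did not share 1 pattern over the 7 libraries. Against the mean centred log2 CPM of H2-Aa, H2-Ab1, H2-Eb1 and Cd74, which itself contains them, Pearson's r over the 7 libraries was 0.99 for H2-Eb1 and 0.54 for Cd74. Of genes outside that mean it was 0.92 for H2-Oa, 0.84 for H2-DMb2, 0.80 for Ciita and 0.031 for H2-DMb1. With Ciita, r was 0.86 for Cd74 and 0.86 for H2-Eb1, but 0.32 for H2-Aa, 0.16 for H2-Ab1 and -0.27 for H2-DMb1. The level of the coactivator ran closer to Cd74 and H2-Eb1 over these 7 libraries than to the chains of I-A.

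Of 8987 genes outside the set whose log2 CPM averaged 2 or more, those nearest in pattern to the mean of the 4 abundant genes were, with r over 7 libraries, Il3ra (0.98), Crlf2 (0.98), Slc35e3 (0.97), Smim24 (0.97), Prkar1b (0.96), Gpr18 (0.96), Tmem154 (0.96), I830077J02Rik (0.96), Best1 (0.95), Sp140 (0.94). Crlf2 and Il3ra, which encode cytokine receptor subunits, were the first of these, with 53.2, 76.2 and 69.8 CPM of Crlf2 in the shChi3l1 and 41.0, 50.8, 58.8 and 26.1 CPM in the shSC libraries. Among the 10 nearest to Ciita were Ccdc97 (0.99), Il21r (0.98), Brat1 (0.98), Sphk2 (0.98), Rnf31 (0.97), Akap10 (0.96), Pik3ip1 (0.96), Zfp386 (0.96), Ly6e (0.96). Each set was picked as the highest of all genes compared, and depth and the long-gene share differed between the libraries and enter every gene's pattern, so the values describe these 7 libraries only. Ly6e, an interferon-responsive surface protein gene, stood in the second set.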

How the data were processed

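Macrophages were sorted by flow cytometry after 15 min of collagenase IV at 37 °C, and a SMART-Seq low input kit turned 10 ng of RNA into cDNA, 1 ng of which went into Nextera XT libraries, per the labels' protocols. The authors deposited raw counts for each gene beside its exon positions and length, per the file headers. The submitters' processing notes list featureCounts, HISAT2 and Trim Galore with mm10 as the build. Versions, settings, annotation and the sorting antibodies were not given in the sources used here. Of 55385 gene IDs, 55144 matched a symbol with the version removed, and the 241 others took at most 0.00179% of reads.

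After a filterByExpr filter with a minimum count of 10 and TMM scaling, the 7 libraries were compared by hairpin alone with the robust quasi-likelihood F test of edgeR 4.0.16 (R 4.3.3), with Benjamini-Hochberg adjustment over 15448 genes. CPM use TMM-scaled totals, 0.5 was added to counts before logarithms, and standard errors were derived from the F statistic. The test was checked on simulated counts. The spread between libraries that edgeR fitted, its biological coefficient of variation, was 58.3%. A gene that did not pass is therefore not shown to be unchanged. DESeq2 1.42.0 and limma 3.58.1 served as alternatives. The members, gene lists and tests were chosen with earlier results of these data known. Named outside the members were Cd79a, Chi3l1, the most abundant gene of each list, the 3 genes of smallest unadjusted p of each pathway list, and the 10 nearest in pattern to the abundant class II genes and to Ciita. H2-Ea, Lyz2, Ctsl, Psmb9, Brd2 and the defining markers were added after their values were seen. Some genes that the rule names are not reported here.

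The labels pair the same-numbered libraries 1 to 3 for a figure. Deviations from the group means correlated across genes at 0.31, 0.26 and 0.19 within the same-numbered pairs, all above 0.1, and at up to 0.32 between other libraries. The replicate number entered as a block in an alternative fit over 6 libraries. Depth was 19169129 to 36502664 reads, PCR copies are not independent molecules, and amplification from low input adds noise.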

Additional observations from a re-analysis of the deposited data

How the results depend on the processing

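None of the 10 genes passed an adjusted p of 0.05 in any alternative run: DESeq2, upper quartile or library total scaling, no low-count filter, a filter of 10 counts in every library of a group, each library left out, shChi3l1 3 and shSC 4 both left out, the replicate block, the 6 paired libraries without it, DESeq2's Wald test and voom. Over all genes, DESeq2's Wald test called 1 and every other setting 0. The median over the 10 genes stayed above 0 throughout, from 0.20 to 0.45 with 1 library left out, 0.053 without shChi3l1 3 and shSC 4 and 0.20 with the replicate block, beside a spread of 0.41 between libraries of a group. Library totals gave 0.24, moved the median of all tested genes from 0.066 to -0.13 and put 35.9% of them above 0, with 9 of the 10 still higher. The sign turned for H2-DMa (-0.061 without shSC 4 and in the 6 paired libraries without the block, -0.040 with the replicate block, -0.13 without shChi3l1 3 and shSC 4) and for H2-DMb1 (0.14 without shSC 1). Without shChi3l1 3 and shSC 4 it also turned for H2-Ob (-0.060), Ciita (-0.12) and Cd79a (-1.97), and without shChi3l1 3 alone for Cd79a (-1.60). With 1 library left out, H2-DMa ran from -0.061 to 0.37, H2-DMb1 from -0.36 to 0.14 and Cd79a from -1.60 to 1.49. The cause was not tested.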

Other observations

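Neighbours of the class II genes on chromosome 17 that serve class I presentation did not share 1 order of the libraries. Psmb8 and Psmb9, encoding immunoproteasome subunits, were highest in the replicates numbered 1 of both hairpins. Psmb8 had 2957, 1014 and 1371 CPM in shChi3l1 1, 2 and 3 and 2740.5, 1059, 1686 and 862 CPM in shSC 1, 2, 3 and 4, and Psmb9 had 1341, 452 and 568 CPM in shChi3l1 1, 2 and 3 and 1233, 474, 811 and 346 CPM in shSC 1, 2, 3 and 4. The peptide transporter gene Tap2 was, like Cd74, lowest in shChi3l1 1 and highest in shChi3l1 2. Tap2 had 113 and 171 CPM in shChi3l1 1 and shSC 1 and 134 to 343 CPM elsewhere. Brd2, a chromatin reader gene whose exons overlap those of H2-DMa, had 25.7 and 44.6 CPM in shChi3l1 1 and shSC 1 and 101 to 172 CPM elsewhere. Brd2 was thus lowest in the libraries in which Psmb8 and Psmb9 were highest. The part of the share of reads in long genes, lowest in the same libraries, was not tested.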
